A study of Mus musculus with 9 samples.

Results

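The mitochondrial ribosomal proteins described here were the genes with a symbol that starts with Mrpl or Mrps followed by a number in the table deposited with 9 Affymetrix mouse expression arrays. There were 73 such genes, measured by 118 probe sets, among 13152 genes tested. The probe set with the highest mean over the 9 arrays stood for each gene. This rule uses no difference between groups, but it was set with earlier results of these data known. CD8+ T cells, which kill infected or foreign targets, were profiled in 3 populations with 3 arrays each, called biological replicates in the labels. The effector population ("effector memory" in the labels) was sorted as CD44-high and the postmitotic population as CD44-low. Each of them came from pools of 4 male B6/SJL recipients, 14 days after 10 Gy of irradiation and a transplant of naive CD8+ T cells from female C3H.SW donors with T cell-depleted bone marrow, given to induce graft-versus-host disease (GVHD). Naive cells, with the surface markers of the postmitotic ones, came from pools of 2 normal female C3H.SW mice. Irradiation, transplant and host differ between naive cells and the other groups together with the cell state, and cannot be told apart from it.

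The mitochondrial ribosome makes the few proteins that mitochondrial DNA encodes, all of them core subunits of the respiratory chain and the ATP synthase. Its own proteins are encoded in the nucleus, made on cytosolic ribosomes and imported, then assembled on ribosomal RNA transcribed inside the mitochondrion. Many of them have a counterpart in the bacterial ribosome, and others are specific to mitochondria. Activated T cells are known to increase their mitochondrial mass and to need mitochondrial translation. By their place in the known mammalian structure, 48 of the 73 genes encode proteins of the large subunit and 24 encode proteins of the small subunit. Of these, 47 have a bacterial counterpart and 25 do not. Mrps36 stands alone, since its product is now known as a component of the 2-oxoglutarate dehydrogenase complex and not of the ribosome.

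Some promoters of these genes carried the same short sequences, which are shown here because they are a feature that the choice by symbol did not use. RefSeq promoter windows on GRCm38.p6, from 250 bases before to 50 bases after the start site, were matched for 64 of the 73 genes, and the first window listed was read for each. Each motif was searched on both strands. The ETS core CCGGAAG, bound by factors of the GABP (NRF-2) type, occurred in 22 of these 64 windows (34.4%), beside 15.1% of the windows of 10046 tested genes and 9.12% of 27025 windows in all. The YY1 motif AAGATGGC occurred in 10 windows (15.6%), beside 3.98% of the windows of tested genes and 2.88% of all. The palindromic NRF1 motif stood in 3 windows (4.69%), beside 1.58% and 0.977%. The SP1 box GGGCGGG (42.2%, beside 42.7% and 25.8%), the E-box CACGTG (7.81%, beside 9.36% and 7.24%) and CCAAT (39.1%, beside 38.2% and 37.9%) were about as frequent as among tested genes, and TATAAA stood in 6.25%, beside 10.2% and 14.2%. No overlap between these motifs was removed, and a match in a window is a description of its letters only. The 120 bases before the start site are printed in the direction of transcription, with an ETS or YY1 match in capitals. Mrpl27, Mrpl52, Mrpl36 and Mrpl22 belong to the patterns described below and were picked because they carry a match. Mrpl48, with a smaller adjusted p against naive cells than Mrpl52 or Mrpl36, and Mrpl24, with the smallest among the genes that fell in effector cells, carry neither motif in their windows and are printed beside them, and Mrpl23, Mrpl30 and Mrpl45 carry neither as well.
Mrpl27, GRCm38.p6 chr11:94653671-94653790, plus strand: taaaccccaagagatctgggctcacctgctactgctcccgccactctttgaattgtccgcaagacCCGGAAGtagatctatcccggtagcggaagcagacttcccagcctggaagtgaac
Mrpl52, GRCm38.p6 chr14:54426789-54426908, plus strand: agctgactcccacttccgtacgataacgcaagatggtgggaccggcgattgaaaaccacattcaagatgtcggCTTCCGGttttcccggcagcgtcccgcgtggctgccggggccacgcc
Mrpl36, GRCm38.p6 chr13:73330889-73331008, plus strand: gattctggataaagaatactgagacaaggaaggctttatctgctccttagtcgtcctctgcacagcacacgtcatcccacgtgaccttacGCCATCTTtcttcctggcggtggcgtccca
Mrpl22, GRCm38.p6 chr11:58171544-58171663, plus strand: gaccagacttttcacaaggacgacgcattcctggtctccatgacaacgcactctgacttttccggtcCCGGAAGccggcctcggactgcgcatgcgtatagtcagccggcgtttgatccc
Mrpl48, GRCm38.p6 chr7:100608302-100608421, minus strand: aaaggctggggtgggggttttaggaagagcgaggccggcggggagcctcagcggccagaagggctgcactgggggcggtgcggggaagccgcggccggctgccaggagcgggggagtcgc
Mrpl24, GRCm38.p6 chr3:87919424-87919543, plus strand: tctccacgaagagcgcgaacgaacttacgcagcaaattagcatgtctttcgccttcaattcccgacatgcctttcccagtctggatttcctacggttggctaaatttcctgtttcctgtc
The ETS match began 55 bases before the start site in Mrpl27, 53 in Mrpl22 and 47 in Mrpl52, which had a further one beginning at base 3 after it. The YY1 match of Mrpl36 began 30 bases before the start site, beside an E-box. Genes with the same motif differed in their pattern over the cells, since Mrpl27 was higher and Mrpl22 lower than in naive cells in both other groups.

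The sort marker Cd44 followed the labels. It averaged log2 11.11 ± 0.20 in effector cells, 7.33 ± 0.40 in postmitotic cells and 7.28 ± 0.33 in naive cells (SD, n = 3 each). Y-linked transcripts, which only male recipient cells can supply, were seen on effector replicate 3 and postmitotic replicate 3, where the summed signal of 4 genes reached 971 and 3816 signal units, against at most 173 on the naive arrays. Summed signals of other cells' markers ranged from 21563 to 23712 in effector, 19947 to 28456 in postmitotic and 20462 to 22951 units in naive cells for 14 myeloid genes. For 8 B cell genes they were 873 to 1051, 667 to 949 and 796 to 840 in that order. For 7 NK genes, some of which activated CD8+ T cells also express, they were 48081 to 51331, 23970 to 24662 and 17348 to 17758. For 10 erythroid and megakaryocytic genes they were 922 to 1330, 725 to 1393 and 1021 to 1409, and for 5 immature thymocyte genes 2670 to 3220, 3951 to 4550 and 5759 to 6226. Between 3′ and 5′ control probe sets the log2 difference of actin was 0.78 to 0.97 in effector, 1.35 to 1.48 in postmitotic and 1.28 to 1.87 in naive cells, and that of the transferrin receptor 1.28 to 1.94, 1.07 to 1.75 and 0.38 to 0.54. For Gapdh the same difference was 2.84 to 2.88 in effector, 2.89 to 2.96 in postmitotic and 2.99 to 3.12 in naive cells. Similar sums can hide changes of single markers. In effector minus naive cells 2 of the 14 myeloid genes were called higher and 2 lower. Of the 8 B cell genes 2 were called higher and 1 lower, beside 14.5% of all genes higher and 16.3% lower. The part of these markers and controls in the results below was not tested.

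The mitochondrial ribosomal protein genes had RNA signal on every array. Their mean log2 values over the 9 arrays ran from 8.23 for Mrpl14 to 12.74 for Mrpl24, and all 73 genes lay above the value of zero signal (6.64) on every array. The values are log2 with an offset added by the authors, so that folds are somewhat understated for the dimmer genes. The spread between arrays of a group was small, with a median SD over the 73 genes of 0.06 in effector, 0.10 in postmitotic and 0.14 in naive cells.

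As a group, mitochondrial ribosomal protein genes lay highest in postmitotic cells. The postmitotic mean was the highest of the 3 group means for 46 of 73 genes, beside 30.2% of all genes tested and 27.8% of the 6551 genes at least as bright as Mrpl14. The effector mean was the highest for 17 genes and the naive mean for 10, beside 32.5% and 37.3% of all genes. The lowest mean was that of effector cells for 35 genes, that of naive cells for 32 and that of postmitotic cells for 6, beside 42.1%, 30.1% and 27.8%. Summed over the 73 genes, signal was 152335 to 161882 units on the postmitotic arrays, against 127527 to 129185 on the effector arrays and 120635 to 138553 on the naive arrays. All 3 postmitotic sums exceeded the other 6. In these bulk samples, fewer cells of a type and less RNA per cell cannot be told apart.

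The shift was small for most genes. Taken as the median over the 73 genes of the log2 value minus the naive mean, the arrays stood at -0.01, 0.01 and -0.02 in effector cells, 0.19, 0.25 and 0.22 in postmitotic cells, and 0.10, -0.11 and 0.01 in naive cells. The 3 postmitotic arrays lay above all others, but naive replicates 1 and 2 differed from each other by about as much as the postmitotic arrays differed from the naive mean.

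**Figure D1:**
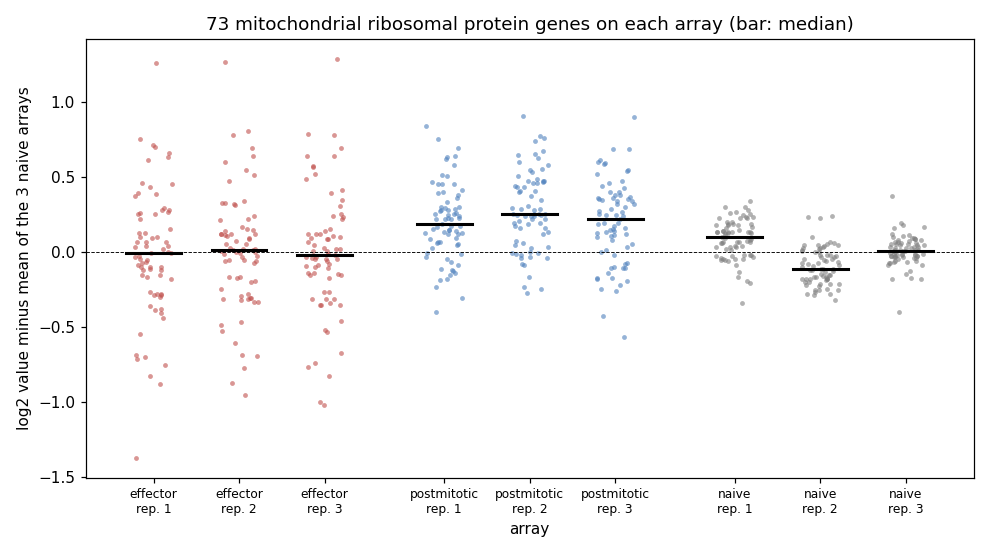
Log2 value minus the mean of the 3 naive arrays for each of the 73 mitochondrial ribosomal protein genes (points) on each of the 9 arrays, with the median as a bar. The postmitotic medians lie at 0.19 to 0.25 and the effector medians near 0, where the genes spread widest.

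Postmitotic cells were compared with naive cells, which carry the same surface phenotype but come from normal mice. Of the 73 genes, 15 rose and 1 fell in postmitotic cells (limma, Benjamini-Hochberg adjusted p under 0.05 over all 13152 genes), beside 11.8% of all genes called, 6.13% higher and 5.7% lower. Among the 6551 genes at least as bright as the dimmest member, 20.5% were called, 10.5% higher and 10.1% lower. The members' median log2 difference was 0.22, with 59 positive and 14 negative differences, and the median over all genes was -0.01. The arrays of the 2 groups did not overlap for 36 members higher and 4 lower, beside 14.3% and 14.9% of all genes. The median kept its sign and size without any 1 array (0.19 to 0.28), but the number of calls did not. It was 15 without naive replicate 1, 6 without naive replicate 2 and 7 without naive replicate 3. It was 7 without effector replicate 1, 6 without effector replicate 2 and 6 without effector replicate 3. It was 9 without postmitotic replicate 1, 5 without postmitotic replicate 2 and 9 without postmitotic replicate 3. Without both arrays with Y-linked signal 3 were called, and the median was 0.22. The share of all genes called in each of these fits is not given beside the counts. A change in calls over all genes and one in the members alone cannot be told apart from them. By the criteria of the authors' deposited table (p under 0.01 and fold over 1.5) 4 members passed, all higher, beside 6.06% of all genes, a share near that of the members.

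Mrpl27, a large subunit protein whose bacterial counterpart reaches into the site of peptide bond formation, differed most from naive cells. It had log2 values of 10.68, 10.74 and 10.74 in postmitotic cells and 11.10, 11.10 and 11.12 in effector cells, against 9.82, 9.89 and 9.81 in naive cells. No 2 groups overlapped. The rise over naive cells was 0.88 in postmitotic (1.84-fold, SE 0.077, limma adjusted p = 0.000749) and 1.27 in effector cells (2.41-fold, SE 0.077, adjusted p = 9.11e-06). Both held under all 17 alternatives run. Another 5 genes were called higher than naive in both groups, Mrpl16, Mrpl18, Mrps18c, Mrps16 and Mrps7. Mrpl16, a large subunit protein, stood at 11.78, 11.91 and 11.71 in postmitotic and 11.88, 11.91 and 11.83 in effector cells, against 11.35, 11.11 and 11.35 in naive cells. Its rise of 0.53 in postmitotic cells (adjusted p = 0.0157) was lost without postmitotic replicate 2, without both Y-positive arrays and with only the 6 arrays compared. Mrpl18, whose bacterial counterpart binds 5S ribosomal RNA, rose by 0.54 (adjusted p = 0.0461) in postmitotic and 0.76 (adjusted p = 0.00432) in effector cells. Mrps16 of the small subunit rose by 0.43 in postmitotic (adjusted p = 0.0477) and 0.44 in effector cells (adjusted p = 0.0193). Mrps7, whose bacterial counterpart helps to start assembly of the small subunit head, rose by 0.34 (adjusted p = 0.0347) and 0.27 (adjusted p = 0.0411). The 2 comparisons share the naive arrays, and the share of all genes called higher than naive in both groups is not given.

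A set of 9 genes stood apart in postmitotic cells, called higher there than in both other groups, and no gene stood apart as lower. Over all genes the shares were 1.84% higher and 1.29% lower, and 3.19% and 2.29% among genes as bright as the members. The 9 were Mrpl2, Mrpl11, Mrpl19, Mrpl35, Mrpl36, Mrpl45, Mrpl48 and Mrpl52 of the large subunit and Mrps34 of the small one. Mrps34, a mitochondria-specific protein that stabilises the small subunit, had log2 values of 11.58, 11.66 and 11.57 in postmitotic cells, against 10.59, 10.61 and 10.58 in effector cells and 10.95, 10.78 and 10.94 in naive cells. All 3 groups were separate, with postmitotic highest and effector lowest. The difference was 0.71 from naive (1.64-fold, SE 0.086, adjusted p = 0.00239) and 1.01 from effector cells (2.02-fold, SE 0.086, adjusted p = 8.48e-05), and both held under all 17 alternatives. Mrps34 was also the only member called in opposite directions against naive cells, since it fell by 0.30 in effector cells (adjusted p = 0.0311). That fall was lost in 9 of 17 alternatives, among them cyclic loess, without naive replicate 1 or 3 and without any 1 effector array.

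Mrpl48, a mitochondria-specific protein of the large subunit, stood at 10.50, 10.60 and 10.46 in postmitotic cells, against 9.93, 9.97 and 9.93 in effector cells and 10.00, 9.78 and 9.82 in naive cells. Effector and naive arrays overlapped, and the postmitotic arrays lay above both by 0.58 (adjusted p = 0.00239) and 0.65 (adjusted p = 0.00469). Mrpl52, also mitochondria-specific, had 12.78, 12.76 and 12.80 in postmitotic cells, against 11.77, 11.89 and 11.87 in effector cells and 12.47, 11.93 and 12.22 in naive cells. The 3 postmitotic values were nearly equal while the naive values were spread widely. The difference from effector cells was 0.94 (1.92-fold, adjusted p = 0.00134, and 0.62 with its probe sets averaged) and held under all 17 alternatives. That from naive cells was 0.57 (adjusted p = 0.0314). It was lost without any 1 array other than naive replicate 1 and without both Y-positive arrays, among other alternatives. Mrpl36, a large subunit protein with a bacterial counterpart, was at 10.83, 10.79 and 10.78 in postmitotic cells, against 10.46, 10.40 and 10.42 in effector cells and 10.35, 10.02 and 10.21 in naive cells. Its rise over naive cells was 0.61 (adjusted p = 0.00856) and held without any 1 array but not without both Y-positive arrays or with only the 6 arrays compared. The rise over effector cells (0.37, adjusted p = 0.0292) was lost without any 1 effector or postmitotic array, without both Y-positive arrays and with cyclic loess.

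Mrpl45, which lies at the exit of the peptide tunnel and tethers the ribosome to the inner membrane, was at 10.18, 10.20 and 10.11 in postmitotic cells, against 9.49, 9.58 and 9.69 in effector and 9.74, 9.70 and 9.88 in naive cells. The postmitotic arrays lay above the other 6. The difference was 0.58 from effector (adjusted p = 0.00254, held under all 17 alternatives) and 0.39 from naive cells (adjusted p = 0.0341). The call against naive cells was lost without any 1 array other than effector replicate 1 and without both Y-positive arrays, among other alternatives. Mrpl2, a core protein next to the catalytic site in the bacterial ribosome, differed by 0.54 from naive (adjusted p = 0.0384) and 0.61 from effector cells (adjusted p = 0.0115). Mrpl19 differed by 0.36 (adjusted p = 0.0409) and 0.40 (adjusted p = 0.0145), and Mrpl11, of the stalk base where translation factors bind, by 0.40 (adjusted p = 0.0346) and 0.34 (adjusted p = 0.033). The 4 probe sets of Mrpl11 ran from -0.05 to 0.40 against naive cells, and none was called in a separate fit to every probe set. The call of Mrpl2 against naive cells was lost without any 1 of the 9 arrays, and that of Mrpl19 without any 1 array other than postmitotic replicate 1. Both calls were also lost without both Y-positive arrays, among other alternatives. Against effector cells, Mrpl2's call was lost without both Y-positive arrays (adjusted p = 0.112), and Mrpl19's without effector replicate 1 and without both Y-positive arrays. Mrpl35 differed by 0.49 from naive cells (adjusted p = 0.02) on its brightest probe set, but by 0.02 (adjusted p = 0.933) when its probe sets were averaged. Among other alternatives, its call was also lost without naive replicate 2, without postmitotic replicate 1 or 2 and without both Y-positive arrays. Its difference from effector cells was 0.53 (adjusted p = 0.00595), against 0.31 (adjusted p = 0.0874) with the probe sets averaged. The count of genes apart in postmitotic cells was 9 without naive replicate 1, 3 without naive replicate 2, 5 without naive replicate 3, 4 without effector replicate 1 and 3 without effector replicate 2 or 3. It was 4 without postmitotic replicate 1, 2 without postmitotic replicate 2, 5 without postmitotic replicate 3, and 2 without both Y-positive arrays. No member was called lower in any of these. The shares of all genes in these fits are not given beside the counts.

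**Figure D2:**
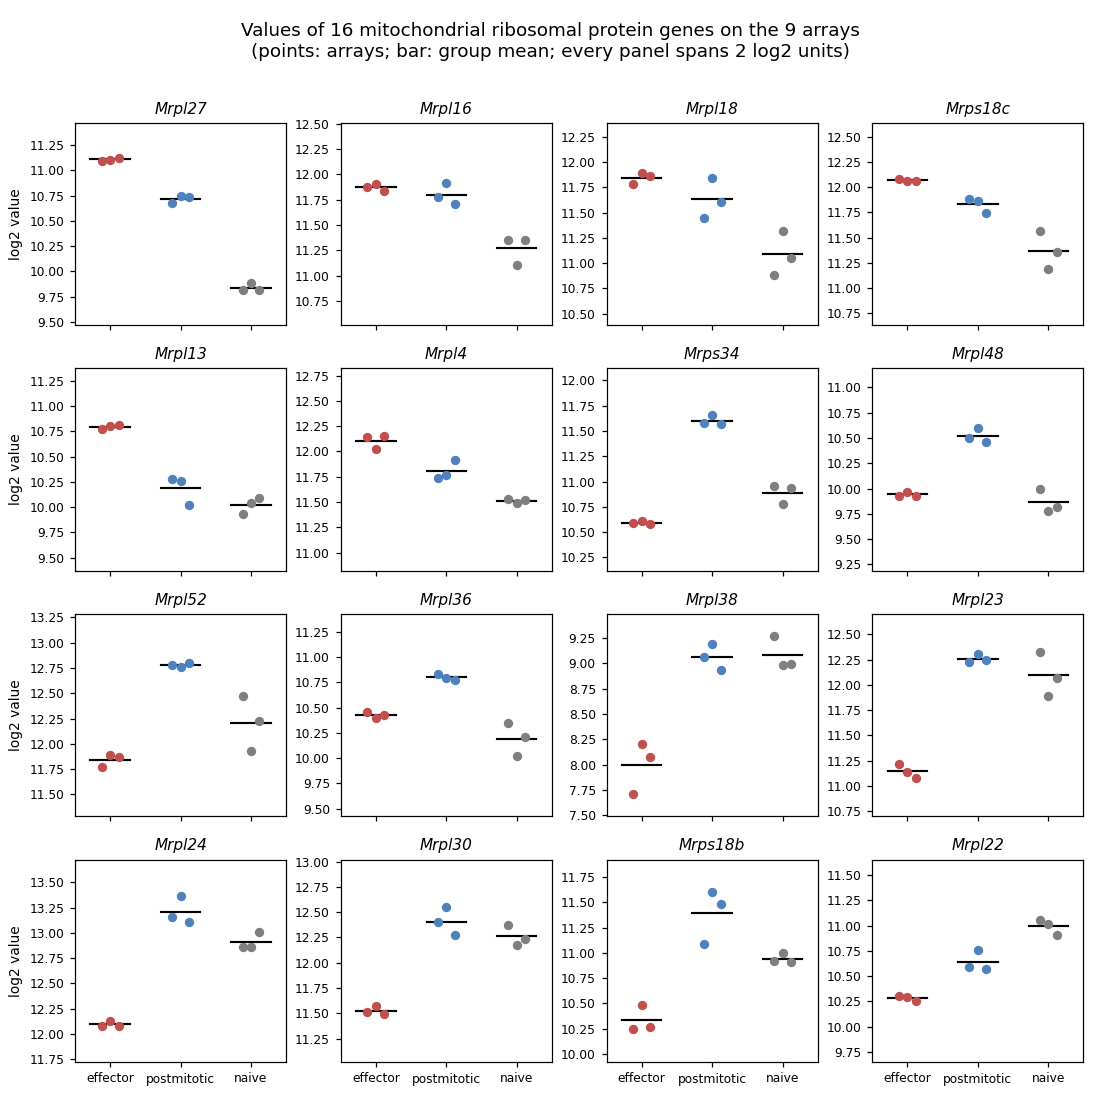
Log2 values of 16 mitochondrial ribosomal protein genes in effector, postmitotic and naive cells, with a point for each array and the group mean as a bar, on axes that all span 2 log2 units. Mrpl27 is separate in all 3 groups, Mrps34, Mrpl48 and Mrpl52 are highest in postmitotic cells, and the effector arrays of Mrpl38, Mrpl23, Mrpl24 and Mrpl30 lie below the other 6.

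Effector cells were compared with naive cells, setting cells of the CD44-high phenotype in transplanted recipients against resting cells of normal mice. Mitochondrial ribosomal protein genes went both ways, with 12 of 73 higher and 12 lower in effector cells (limma, adjusted p under 0.05). Over all genes 30.8% were called, 14.5% higher and 16.3% lower, and among the genes at least as bright as the dimmest member 50.5% (22.5% higher and 28% lower), so the share of members called (32.9%) lay near the first background and below the second. The median log2 difference was -0.03 over members and -0.06 over all genes, with a range of -1.08 to 1.27. The arrays of both groups did not overlap for 18 members higher and 18 lower, beside 20.4% and 24.7% of all genes. With cyclic loess in place of the authors' scaling alone, the split was 17 higher to 9 lower and the median 0.07. The median over all genes moved as well, from -0.06 to -0.00. The balance of directions thus depends on the scaling, for the members and for all genes. Without both Y-positive arrays 15 were called, 8 higher and 7 lower.

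After Mrpl27, the rises with the smallest adjusted p in effector cells were those of Mrpl13 and Mrpl4, both large subunit proteins with bacterial counterparts. Mrpl13 had log2 values of 10.77, 10.80 and 10.81 in effector cells and 10.28, 10.26 and 10.02 in postmitotic cells, against 9.94, 10.05 and 10.09 in naive cells. It rose by 0.77 over naive (1.71-fold, SE 0.100, adjusted p = 0.000585), and the postmitotic values overlapped the naive ones. Mrpl4, whose bacterial counterpart lines the peptide exit tunnel, was at 12.14, 12.02 and 12.15 in effector cells, against 11.53, 11.49 and 11.52 in naive cells, a rise of 0.59 (adjusted p = 0.00128). Mrps6 of the small subunit had 10.19, 10.13 and 10.17 in effector cells, against 9.57, 9.34 and 9.70 in naive cells, a rise of 0.63 (adjusted p = 0.0096). Mrpl13, Mrpl4 and Mrps6 were the 3 genes also called higher in effector than in postmitotic cells without a call between postmitotic and naive cells. Their calls against naive cells held under all 17 alternatives. The share of all genes with this pattern is not given, and both calls use the same effector arrays. The remaining rises were those of Mrpl51, Mrpl17 and Mrpl14. Mrpl51 rose by 0.52 (adjusted p = 0.00417) on its brightest probe set, while another of its 3 probe sets was called in the opposite direction and the mean of all was -0.11 (adjusted p = 0.485), so its direction is uncertain.

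Of the 12 genes that fell in effector cells, 10 were not called between postmitotic and naive cells. This is near the share over all genes, since 11596 of 13152 were not called in that comparison. Mrpl38, a mitochondria-specific protein of the large subunit, had log2 values of 7.71, 8.20 and 8.08 in effector cells and 9.07, 9.20 and 8.94 in postmitotic cells, against 9.27, 8.98 and 8.99 in naive cells. It fell by 1.08 below naive (2.12-fold lower, SE 0.153, adjusted p = 0.000938), while the postmitotic minus naive difference was -0.01 (95% interval -0.36 to 0.34). This rests on the brighter of its 2 probe sets, since the other gave -0.22 without a call and their average -0.65 (adjusted p = 0.00933). Mrpl23, Mrpl24 and Mrpl22 encode counterparts of the bacterial proteins that ring the exit of the peptide tunnel. Mrpl23 was at 11.22, 11.14 and 11.08 in effector cells and 12.23, 12.30 and 12.25 in postmitotic cells, against 12.32, 11.89 and 12.07 in naive cells, and fell by 0.95 (1.93-fold lower, adjusted p = 0.000494). Mrpl24 was at 12.08, 12.13 and 12.08 in effector cells and 13.15, 13.37 and 13.10 in postmitotic cells, against 12.86, 12.86 and 13.00 in naive cells, and fell by 0.81 (1.75-fold lower, adjusted p = 0.000443). For both genes the effector arrays lay below all 6 others. Mrpl22 was the only member called lower in both groups, with 10.30, 10.30 and 10.25 in effector and 10.59, 10.76 and 10.57 in postmitotic cells, against 11.06, 11.02 and 10.90 in naive cells. It fell by 0.71 in effector cells (adjusted p = 0.000571, held under all 17 alternatives). In postmitotic cells it fell by 0.35 (adjusted p = 0.0421). This call was lost without any 1 array other than postmitotic replicate 2 and without both Y-positive arrays, among other alternatives.

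Mrpl30 of the large subunit was at 11.51, 11.57 and 11.49 in effector cells, against 12.37, 12.18 and 12.23 in naive cells, and fell by 0.73 (adjusted p = 0.000852). In the small subunit, Mrps15 fell by 0.50 (adjusted p = 0.00256, and by 0.30 with its probe sets averaged), Mrps31 by 0.56 (adjusted p = 0.0123) and Mrps5 by 0.44 (adjusted p = 0.0126). The other probe set of Mrps5 was called in the opposite direction and their average was -0.01, so its direction is uncertain. A set of 7 genes were lower in effector than in naive cells, higher in postmitotic than in effector cells and not called between postmitotic and naive cells. These were Mrpl23, Mrpl24, Mrpl30, Mrpl34, Mrpl38, Mrps15 and Mrps18b. The share of all genes with this pattern is not given, and both calls use the same effector arrays. A missing call does not show equal levels, since the postmitotic arrays of Mrpl24 and Mrps18b lay above the naive ones. The Mrps18 paralogues, of which a bacterium has a single counterpart, took different courses. Mrps18b had 10.25, 10.48 and 10.27 in effector cells and 11.09, 11.60 and 11.48 in postmitotic cells, against 10.92, 11.00 and 10.91 in naive cells, a fall of 0.61 in effector cells (adjusted p = 0.0116) that was lost without both Y-positive arrays (adjusted p = 0.0623). Its postmitotic minus naive difference was 0.45 (limma adjusted p = 0.0826), not called as reported but called in 3 of 17 alternatives. Mrps18c had 12.08, 12.06 and 12.06 in effector cells and 11.88, 11.86 and 11.75 in postmitotic cells, against 11.57, 11.19 and 11.36 in naive cells, a rise of 0.70 in effector (adjusted p = 0.00176) and 0.46 in postmitotic cells (adjusted p = 0.0347). The postmitotic call was lost without any 1 array other than naive replicate 1 and without both Y-positive arrays, among other alternatives. Mrps18a, placed in the large subunit by structure, was not called against naive cells, at -0.18 in effector (adjusted p = 0.142) and 0.14 in postmitotic cells (adjusted p = 0.354), and was 0.32 higher in postmitotic than in effector cells (adjusted p = 0.024). That call was lost in 6 of 17 alternatives, namely cyclic loess, without both Y-positive arrays, without effector replicate 2 or 3 and without postmitotic replicate 1 or 2. Mrps30, another protein placed in the large subunit despite its symbol, fell by 0.34 in effector cells (adjusted p = 0.0155). The call was lost without effector replicate 1 or 3, without both Y-positive arrays and with cyclic loess. Mrps36 was not called, at 0.12 in effector minus naive (adjusted p = 0.567), -0.03 in postmitotic minus naive (adjusted p = 0.919) and -0.15 in postmitotic minus effector cells (adjusted p = 0.487).

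**Figure D3:**
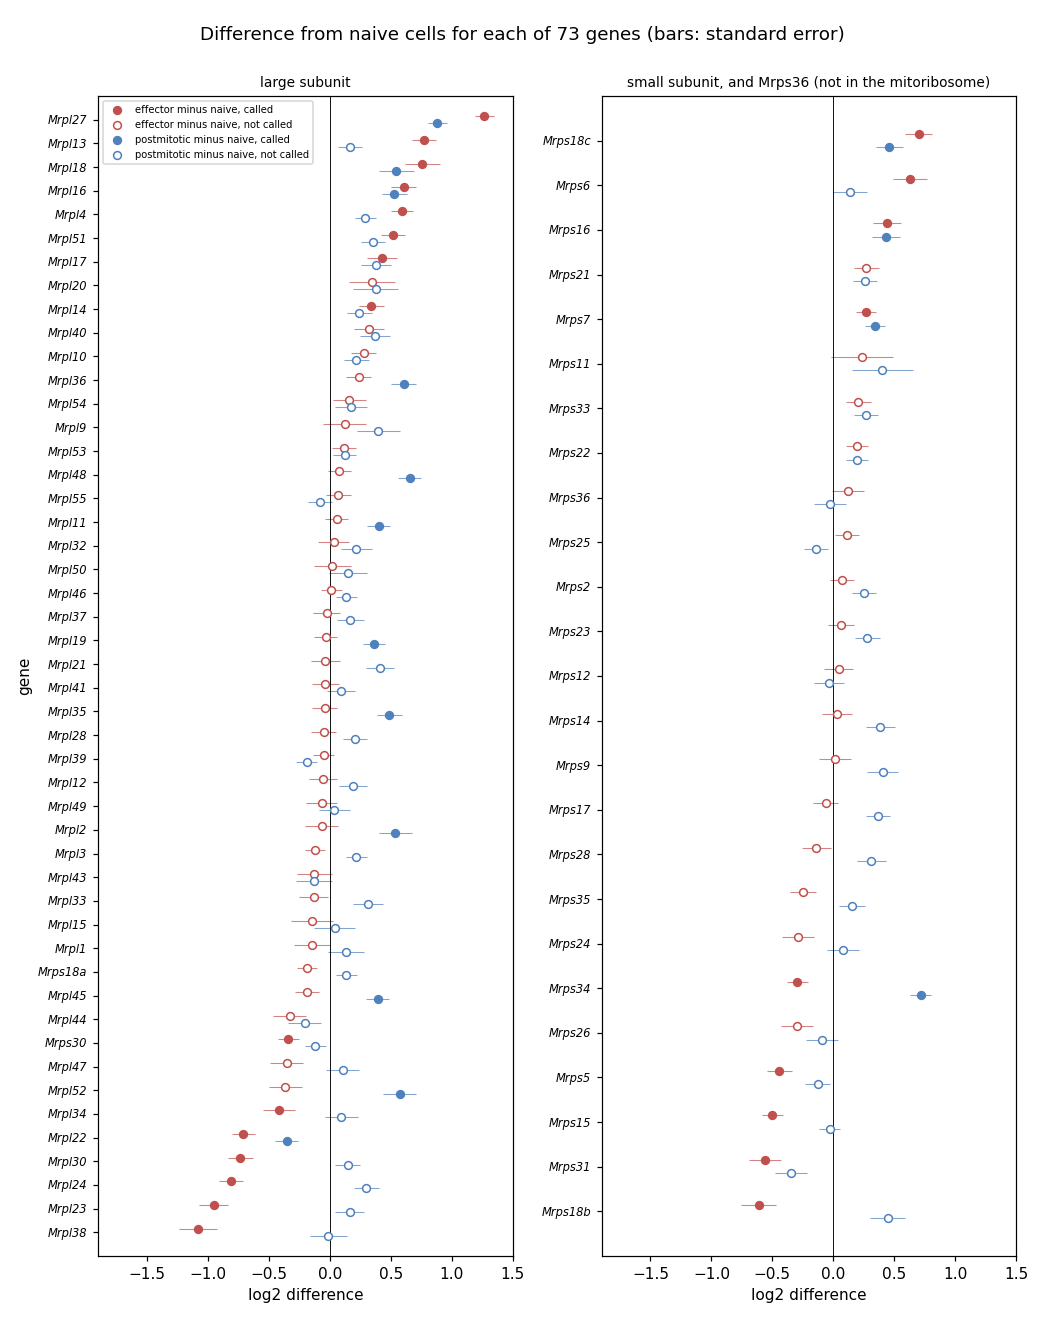
Log2 difference from naive cells of each of the 73 genes, in effector (red) and postmitotic cells (blue), with the standard error as a bar and called genes filled, ordered by the effector difference and split by subunit. Effector differences run from -1.08 (Mrpl38) to 1.27 (Mrpl27), and 59 of 73 postmitotic differences are positive.

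Postmitotic cells were last compared with effector cells from the same kind of recipient. Here 25 members were higher and 4 lower in postmitotic cells, beside 24.9% of all genes called, 13.2% higher and 11.8% lower, and 40.8% among the genes at least as bright as the dimmest member, 22.6% higher and 18.1% lower. The median log2 difference was 0.20 over members, with a median of 0.04 over all genes, and 39 members higher and 9 lower did not overlap between the groups, beside 22.9% and 19.4%. With cyclic loess the split was 16 higher to 5 lower and the median 0.13, beside a median of -0.01 over all genes. Without effector replicate 1, 2 or 3 the calls numbered 17, 16 and 17, without postmitotic replicate 2 they numbered 17, and without both Y-positive arrays 12. At least 2-fold differences were seen in 5 of the 73 genes, all higher in postmitotic cells. Over all genes they were seen in 1070 of 13152, in either direction, so the members' share was not above that of all genes. Mrpl24 and Mrpl23 were each higher by 1.11 (adjusted p = 0.000111 and 0.000281), Mrpl38 by 1.07 (adjusted p = 0.00128, and 0.58 with its probe sets averaged), Mrps18b by 1.06 (adjusted p = 0.00092) and Mrps34 by 1.01. Mrpl30 was higher by 0.88 (adjusted p = 0.000417). The 4 lower genes were Mrpl13 (-0.61, adjusted p = 0.00269, and -0.39 with its probe sets averaged), Mrpl27 (-0.39, adjusted p = 0.0069), Mrps6 (-0.49, adjusted p = 0.0342) and Mrpl4 (-0.30, adjusted p = 0.0399). Without any 1 effector array or postmitotic replicate 1, Mrps6 and Mrpl4 were not called, nor was Mrpl4 without naive replicate 3 or postmitotic replicate 2. Mrps6, Mrpl4 and Mrpl27 were not called without both Y-positive arrays (adjusted p = 0.0621 for Mrpl27). This comparison shares its arrays with the other comparisons, so the 3 sets of calls are not separate evidence.

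Over the 3 comparisons 40 of the 73 genes were called at least once and 33 never, beside 38.1% of all genes called at least once and 61.2% of the genes at least as bright as the dimmest member. The 33 included the stalk protein Mrpl12, which also binds mitochondrial RNA polymerase, and Mrps12, whose bacterial counterpart lies at the decoding site. Genes that rose were found in both subunits. In postmitotic minus naive cells 11 large subunit genes rose and 1 fell, of 48, and 4 small subunit genes rose and none fell, of 24, with medians of 0.21 and 0.26, beside 6.13% of all genes higher and 5.7% lower. In effector minus naive cells 8 rose and 7 fell in the large subunit, and 4 rose and 5 fell in the small one, beside 14.5% of all genes higher and 16.3% lower. Genes with a bacterial counterpart numbered 11 higher and 8 lower of 47 in effector cells, and mitochondria-specific genes 1 higher and 4 lower of 25. In postmitotic cells these groups had 11 higher and 1 lower, and 4 higher and none lower, with medians of 0.29 and 0.15. The differences between these groups of genes were not tested.

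Genes of the mitoribosome outside the choice by symbol gave further values. Mrpl42, listed under an older symbol in the table, had log2 values of 11.22, 11.06 and 11.16 in effector and 10.81, 10.84 and 10.94 in postmitotic cells, against 10.63, 10.52 and 10.56 in naive cells. It rose by 0.58 in effector cells (adjusted p = 0.00141). Of 7 other proteins of the mitoribosome with other names, 1 rose and 4 fell in effector minus naive cells, 2 rose in postmitotic minus naive cells, and 4 were higher in postmitotic than in effector cells. Over all genes 14.5% rose and 16.3% fell in effector minus naive cells. Another 6.13% rose in postmitotic minus naive cells, and 13.2% were higher in postmitotic than in effector cells. The median of these 7 in postmitotic minus naive cells was 0.17. Dap3, a GTP-binding small subunit protein first described in apoptosis, was lower by 0.55 in effector cells (adjusted p = 0.00291). Mrpl57 rose by 0.47 in effector (adjusted p = 0.0244) and by 0.58 in postmitotic cells (adjusted p = 0.0236).

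Factors that build the mitoribosome or modify its RNA, numbered 19 measured genes of 26 listed. In effector minus naive cells 1 of these rose, 10 fell and 8 were not called, beside 14.5% of all genes higher and 16.3% lower, with a median log2 difference of -0.36, and 13 were higher and none lower in postmitotic than in effector cells, with a median of 0.51. Postmitotic minus naive cells had 2 higher and 2 lower with a median of 0.00, beside 6.13% of all genes higher and 5.7% lower. In postmitotic minus effector cells 13.2% of all genes were higher and 11.8% lower. The GTPase Eral1, a chaperone of small subunit RNA, fell by 1.14 in effector cells (adjusted p = 0.00023), and the RNA methyltransferase Mrm1 fell by 1.23 (adjusted p = 0.000287). Of 6 measured translation factors of 14 listed, Mrrf, the ribosome recycling factor, was the one called, lower by 0.64 in effector than in naive cells (adjusted p = 0.007). Of 11 measured mitochondrial tRNA synthetases of 20 listed, none rose and 2 fell in effector minus naive cells, and 3 rose and none fell in postmitotic minus naive cells. The synthetases that fell were 18.2% of those measured, near the 16.3% of all genes. Of 15 measured genes for mitochondrial DNA and RNA synthesis of 17 listed, 6 fell and none rose in effector cells, and 1 rose in postmitotic cells. The 1 that rose was 6.67% of those measured, near the 6.13% of all genes.

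Cytosolic ribosomal proteins and respiratory chain subunits were set beside the members to show where they differ and where they are alike. Of 70 cytosolic ribosomal protein genes, 1 rose and 40 fell in effector minus naive cells (median -0.32), while the 73 mitochondrial ones had 12 and 12. In postmitotic minus naive cells none of the 70 rose and 1 fell (median -0.00), while 15 of the 73 mitochondrial ones rose (median 0.22). Of 81 respiratory chain and ATP synthase subunits, all nuclear-encoded, 29 rose and 6 fell in effector minus naive cells (median 0.18), and 5 rose in postmitotic minus naive cells (median 0.19). Over all genes 14.5% rose and 16.3% fell in effector minus naive cells, and 6.13% rose and 5.7% fell in postmitotic minus naive cells. The 5 respiratory chain genes were 6.17% of their list, near the share over all genes. The members' median of -0.03 in effector cells thus lay between those of both lists. In postmitotic minus naive cells the members' median lay near that of the respiratory chain list, where 69 of 81 differences were positive. No test of the difference between lists was run.

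Genes around mitochondrial biogenesis moved in both directions. Of 9 regulators, 1 rose and 3 fell in effector minus naive cells and 1 rose in postmitotic minus naive cells. For these counts and those below, 14.5% of all genes rose and 16.3% fell in effector minus naive cells. In postmitotic minus naive cells 6.13% of all genes rose and 5.7% fell. Myc, a transcription factor that drives ribosome and mitochondrial genes, was 0.61 higher in postmitotic than in naive cells (adjusted p = 0.0294) and fell by 0.70 in effector cells (adjusted p = 0.00609). Pprc1, a coactivator of NRF1-dependent genes, fell by 1.34 in effector cells (adjusted p = 6.27e-05). Of 18 measured protein import genes of 19 listed, 5 rose and 2 fell in effector minus naive cells, and 3 rose and none fell in postmitotic minus naive cells. Of 15 mitochondrial chaperones and proteases, none rose and 2 fell in effector cells, and 3 rose in postmitotic cells, among them Hspa9, the import motor chaperone, by 0.52 (adjusted p = 0.0137). The median in postmitotic minus naive cells was 0.19 for import genes and 0.20 for chaperones and proteases, near the members' 0.22. Cell cycle genes had another order over the cells, with calls higher than naive for 24 of 24 in effector and 11 of 24 in postmitotic cells and medians of 2.93 and 0.78.

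**Figure D4:**
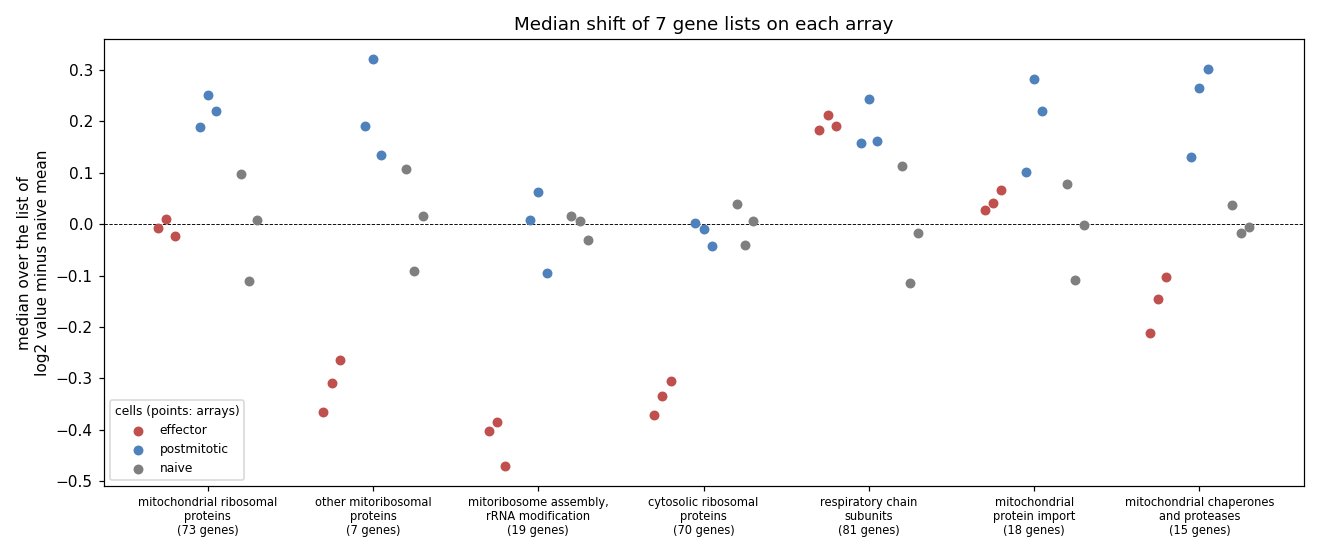
Median over each of 7 gene lists of the log2 value minus the naive mean, with a point for each array of effector (red), postmitotic (blue) and naive cells (grey). For mitochondrial ribosomal proteins the postmitotic arrays lie at 0.19 to 0.25, above both other groups, while the effector medians of cytosolic ribosomal proteins and assembly factors lie below their postmitotic and naive medians. The postmitotic arrays also lie above both other groups for other mitoribosomal proteins (0.13 to 0.32), protein import (0.10 to 0.28) and chaperones and proteases (0.13 to 0.30).

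Different probe sets of a gene often gave different directions. Of the 29 members with several probe sets, the sign of the difference was not the same over all of them for 18 in effector minus naive, 15 in postmitotic minus naive and 8 in postmitotic minus effector cells. Opposite calls occurred in effector minus naive cells only, in Mrpl51 and Mrps5. With the mean of all probe sets, 21 members were called in effector minus naive, 12 in postmitotic minus naive and 25 in postmitotic minus effector cells.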

How the data were processed

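RNA of sorted cells was measured on 9 Affymetrix mouse expression arrays, with 600 ng of RNA copied and amplified in repeated rounds, per the labels' protocols. Per the file headers, the authors made trimmed means per probe set, quantile-normalized them to the array of naive replicate 2 and deposited log2 values with offsets of 50, so that the lowest possible log2 value is 5.64 and zero signal is 6.64. Per the deposited readme, the authors' ratio (fold) columns are antilogs of differences of group means, and their p-value columns are pairwise contrasts of an analysis of variance, unadjusted. The software version is not stated. Each array had a median of 7.90, so a change in total RNA per cell leaves no trace, and 15.7% to 16.0% of values were at or below zero signal. The precision rests on the number of arrays.

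Of 22690 probe sets, 21259 named 1 gene, and 20752 of these were matched to RefSeq (GRCm38.p6) symbols by Entrez number. One probe set a gene gave 13152 genes. limma 3.58.1 (R 4.3.3; lmFit, eBayes) was fitted to all 9 arrays with a mean per group, with 6 residual and 2.14 prior degrees of freedom and Benjamini-Hochberg adjustment over 13152 genes at 0.05, and was tested on simulated data. Signal units are the deposited log2 values turned back to a linear scale with the offset of 100 taken off. Named genes were the 8 members of smallest p called in each direction of each comparison, those apart in postmitotic cells (8 of smallest larger p), those called in opposite directions, the Mrps18 paralogues, Mrps30, Mrps36, those whose probe sets gave opposite calls and any whose mean in a group did not exceed zero signal (none), plus at most 3 per other list and comparison. Mrpl11, Mrpl12, Mrpl14, Mrpl17, Mrpl34, Mrpl42, Mrps7, Mrps12 and Mrps16 were named outside this rule, after their values were seen. Members, lists and rules were chosen with earlier results of these data known. Alternatives were the mean of probe sets, low values raised to zero signal, a filter on low values (3 arrays over the 40th percentile), another variance prior, only the 6 arrays compared, cyclic loess, the replicate number as a block, no Y-positive arrays, each array left out, and the authors' criteria. Deviations of same-numbered arrays correlated at 0.01 to 0.06 over 9 pairs, so the replicate numbers were not taken to pair the samples. Some marker genes are not reported here.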

Additional observations from a re-analysis of the deposited data

How the results depend on the processing

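The members' median log2 difference was positive in every alternative run for postmitotic minus naive cells (0.19 to 0.28 without 1 array each) and for postmitotic minus effector cells (0.19 to 0.22 without 1 array each, 0.17 with the mean of probe sets and 0.13 with cyclic loess). For effector minus naive cells it was -0.05 to 0.03 without 1 array each and 0.07 with cyclic loess, where the median over all genes was -0.00. The count of called members in postmitotic minus naive cells (16 as reported) was 26 with the filter on low values, 30 with the variance prior with trend and robust, 3 with only the 6 arrays compared, 6 with the replicate block, 3 without both Y-positive arrays, and 5 to 15 without 1 array each. The count apart in postmitotic cells (9) was 15 with the filter, 17 with the other prior, 3 with the replicate block, 2 without both Y-positive arrays, and 2 to 9 without 1 array each. Effector minus naive cells (24) had 15 without both Y-positive arrays and 16 to 24 without 1 array each, and postmitotic minus effector cells (29) had 12 and 16 to 32. For these alternatives the share of all genes called is not given, here or above. A change in calls over all genes and one in the members alone cannot be told apart from these counts. At p under 0.01 and a fold over 1.5 in the authors' deposited table, 13, 4 and 9 members passed in effector minus naive, postmitotic minus naive and postmitotic minus effector cells, beside 18.4%, 6.06% and 14.7% of all genes. The replicate block gave 20 and 23 calls in effector minus naive and postmitotic minus effector cells, and the replicate numbers do not pair the samples. Of 58 single-gene values over 17 alternatives, 842 outcomes kept direction and side of the threshold, 4 uncalled ones turned sign, 133 lost the call, 6 gained it and 1 reversed, that of Mrpl51 (-0.11) with the mean of its probe sets. Alternatives for single genes were run for the genes named by the rule only, so not for Mrpl11, Mrpl14, Mrpl17, Mrpl34, Mrps7, Mrps16 or the postmitotic value of Mrpl18. Where a cause is not given by fewer arrays or genes, the cause was not tested.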
